A study of Mus musculus with 10 samples.

Results

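The genes described here encode regulators of small GTPases and of heterotrimeric G proteins in mouse splenic B cells. They are the 25 symbols, of 6610 in the deposited table, that begin with Arhg or Rasgrp, with Dock or Rgs and a digit, or with Rasa and a digit from 1 to 4 or the letter l. The rule reads names and no values. They comprise 6 RhoGAP genes (Arhgap), 1 RhoGDI gene (Arhgdia), 3 RhoGEF genes of the Dbl type (Arhgef), 4 DOCK genes, 1 RasGAP gene (Rasa3), 3 RasGRP genes and 7 RGS genes. The RefSeq annotation holds 107 protein-coding genes with such symbols, so 23.4% of them are listed, and the others were not analysed here.

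Small GTPases such as RhoA, Rac, Cdc42, Ras and Rap are switches that are active when bound to GTP. Guanine nucleotide exchange factors (GEFs) load GTP, GTPase-activating proteins (GAPs) speed its hydrolysis, and the RhoGDI holds RhoA, Rac and Cdc42 inactive in the cytosol. RGS proteins are GAPs for the alpha subunits of heterotrimeric G proteins and so shorten signals from chemokine and lipid receptors. In B cells these systems steer actin, integrin adhesion, migration through the spleen and signalling from the antigen receptor to Ras and Rap.

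The series measured RNA of B cells from spleens of C57BL/6 mice, an inbred strain, in 5 groups of 2 libraries. The group naive held resting B cells without activation. The groups div0 and div12 make up Phase I. They were pulsed with anti-IgM, which engages the antigen receptor, and anti-CD40, which engages a receptor for T cell help, and at 48 h were separated into undivided (div0) and divided (div12) cells. For Phase II, div12 cells stayed in 0.12 µg/ml anti-CD40 for 48 h more, and the sort gave those without further division (div12_48_u) and those with it (div12_48_d). No group carried a transgene or deletion according to the labels. The Phase I libraries are described as independent pools of 4 to 5 mice, and the naive libraries have the same pool size. Pooling in Phase II is not described. RNA was taken from fewer cells in Phase II, while each library was made from 100 ng of RNA, so phase, time in culture and the number of cells taken cannot be told apart. Where the labels do not give separate cultures, p-values measure the spread between these libraries, which may be technical.

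Values are TPM, which set transcripts on a common scale per length and per library, so levels of different genes can be set side by side. Sequencing depth is unknown. Log2 fold changes were computed on TPM + 1, which understates changes of low genes, and are given with their standard error. That error pools the spread within all 5 groups, so a gene has the same one in each comparison of 2 groups. The spread was not equal: the SD over genes of the log2 ratio between replicates was 0.553 for naive and 0.258 to 0.333 for the other groups. The words rose, fell and called are used where the adjusted p of limma (Benjamini-Hochberg over 4427 genes) was under 0.05. Group levels are the mean ± SD of n = 2 libraries.

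All 7 listed B cell markers of the 10 looked for were found in every library, the lowest being Ebf1 at 69.4 TPM. The naive libraries also held RNA of other cells. The summed level of 12 myeloid markers was 767 and 2359 TPM in naive replicates 1 and 2, against 294 to 885 in the other 8 libraries. That of 5 erythroid markers was 2689 and 3294 against 10.9 to 43.5, that of 6 T cell markers 51.4 and 57.8 against 6.89 to 12.2, and that of 4 NK markers 84.8 and 132 against 3.37 to 6.49. For the myeloid sum, naive replicate 1 lay within the range of the other libraries. In div12 against naive cells 9 of the 12 myeloid markers fell and 1 rose, where 47.5% and 19.4% of all genes did. The defining myeloid marker C1qa was listed at 0 in the 4 other groups, and C1qb and Csf1r stayed under 3 TPM there. Mpeg1 and Adgre1 went the other way. They were at 102 and 210 and at 23.4 and 65.6 TPM in naive cells, and at 515 and 581 and at 139 and 204 in div12_48_d. Naive replicates differed from each other more than the libraries of other groups did, with 340 genes over 2-fold apart against 33 to 65. Fewer cells of a type and less RNA per cell cannot be told apart in such bulk samples.

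Rgs10 had the largest log2 rise among the members, and Rasa3 fell 8.22-fold in div12. The Rasgrp3 transcripts took different courses over the groups, a difference that was not tested. For Rgs10, Rasa3 and both starts of Rasgrp3 the 250 bases before a transcription start are shown. They are from RefSeq (GRCm38.p6), 5′ to 3′ on the gene's strand. Capitals mark matches on either strand to the motifs searched. These were the E-box CACGTG, the KLF-type box CCACACCC, the GC box with the letters GGGCGG, the ETS-type site ACTTCCGG and the CCAAT box. No match overlaps another in these windows. The window of Rgs10 lies at chr7:128418173-128418422 (minus strand), before the start of its listed transcript NM_026418 and inside the span of the gene, which has a start farther upstream, that of Rasa3 at chr8:13677588-13677837 (minus strand), and those of Rasgrp3 at chr17:75435655-75435904 and chr17:75465288-75465537 (plus strand).
Rgs10: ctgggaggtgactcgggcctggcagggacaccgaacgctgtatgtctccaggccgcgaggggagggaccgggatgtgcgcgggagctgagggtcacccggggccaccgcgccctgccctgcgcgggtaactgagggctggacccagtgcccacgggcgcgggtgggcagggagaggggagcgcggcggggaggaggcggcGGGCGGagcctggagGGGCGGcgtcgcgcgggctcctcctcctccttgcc
Rasa3: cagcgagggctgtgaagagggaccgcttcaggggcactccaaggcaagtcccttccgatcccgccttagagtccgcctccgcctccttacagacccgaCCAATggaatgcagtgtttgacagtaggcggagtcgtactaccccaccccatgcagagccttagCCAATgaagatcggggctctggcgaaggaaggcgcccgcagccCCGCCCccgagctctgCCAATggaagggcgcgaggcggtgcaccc
Rasgrp3 upstream start: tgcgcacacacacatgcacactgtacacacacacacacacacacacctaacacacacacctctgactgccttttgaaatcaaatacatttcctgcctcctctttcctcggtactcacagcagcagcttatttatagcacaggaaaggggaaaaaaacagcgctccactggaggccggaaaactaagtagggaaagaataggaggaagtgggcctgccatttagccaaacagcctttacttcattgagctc
Rasgrp3 downstream start: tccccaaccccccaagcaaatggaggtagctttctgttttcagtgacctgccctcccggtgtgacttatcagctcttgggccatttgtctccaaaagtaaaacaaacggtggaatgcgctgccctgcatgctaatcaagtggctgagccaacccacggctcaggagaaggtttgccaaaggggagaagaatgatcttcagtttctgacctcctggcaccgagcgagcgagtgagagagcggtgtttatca

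The Rgs10 window held 2 GC boxes and 27 CpG dinucleotides at 76.4% GC, where the median of all 32851 such windows was 52.4% GC. The Rasa3 window held 3 CCAAT boxes and 1 GC box at 64.4% GC. Neither Rasgrp3 window held any of the motifs searched, and their GC content was 47.6% (upstream) and 52.8% (downstream). Among all windows 32.7% held a GC box, 33.8% a CCAAT box, 6.02% an E-box, 3.20% a KLF box and 2.88% an ETS site. A match describes letters only. Promoter windows were found for 20 of the 25 genes.

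Of the 25 genes 21 passed the filter on low values (at least 1 TPM in 2 or more libraries). The other 4 stayed below 1 TPM in every library, Arhgap44 at most at 0.225, Dock1 at 0.635, Dock3 at 0.441 and Rgs17 at 0.189. Arhgap32, Rgs9 and Rgs16 passed at levels no higher than 3.56 TPM. The most abundant gene was Arhgdia at 912 to 1447 TPM.

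More of these genes fell than rose in activated against resting cells, and more rose than fell from div12 to either Phase II group. In div0 against naive cells 2 of 21 rose and 11 fell, which is 61.9% called where 54.9% of all genes were called (15.4% higher, 39.6% lower), and the median change was -0.55 against -0.24 over all genes. In div12 against naive cells 2 rose and 13 fell, 71.4% where 66.9% of all genes were called (19.4% higher, 47.5% lower), with medians of -0.76 and -0.35. These shares are near the background. Median-ratio scaling moved the median of all genes in these comparisons to -0.03 and -0.04, and then 4 rose and 8 fell in div0 and 3 rose and 10 fell in div12. With quantile normalization the counts were 5 and 8 for div0 and 4 and 11 for div12.

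Against div12 cells, 11 members rose and 0 fell in div12_48_u, where 41.3% of all genes were called (27.7% higher, 13.6% lower) and the medians were 0.40 for members and 0.16 for all genes. Median-ratio scaling gave 8 rises and 1 fall there, and quantile normalization 8 and 0. In div12_48_d against div12 8 rose and 1 fell, 42.9% of members where 15.9% of all genes were called (11.9% higher, 4.09% lower), with medians of 0.22 and 0.08. The count was 5 without either div0 library or without div12 replicate 1, and 3 without div12 replicate 2 or div12_48_d replicate 2. These comparisons each share the div12 or naive libraries with another, so their counts are not independent.

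**Figure D1:**
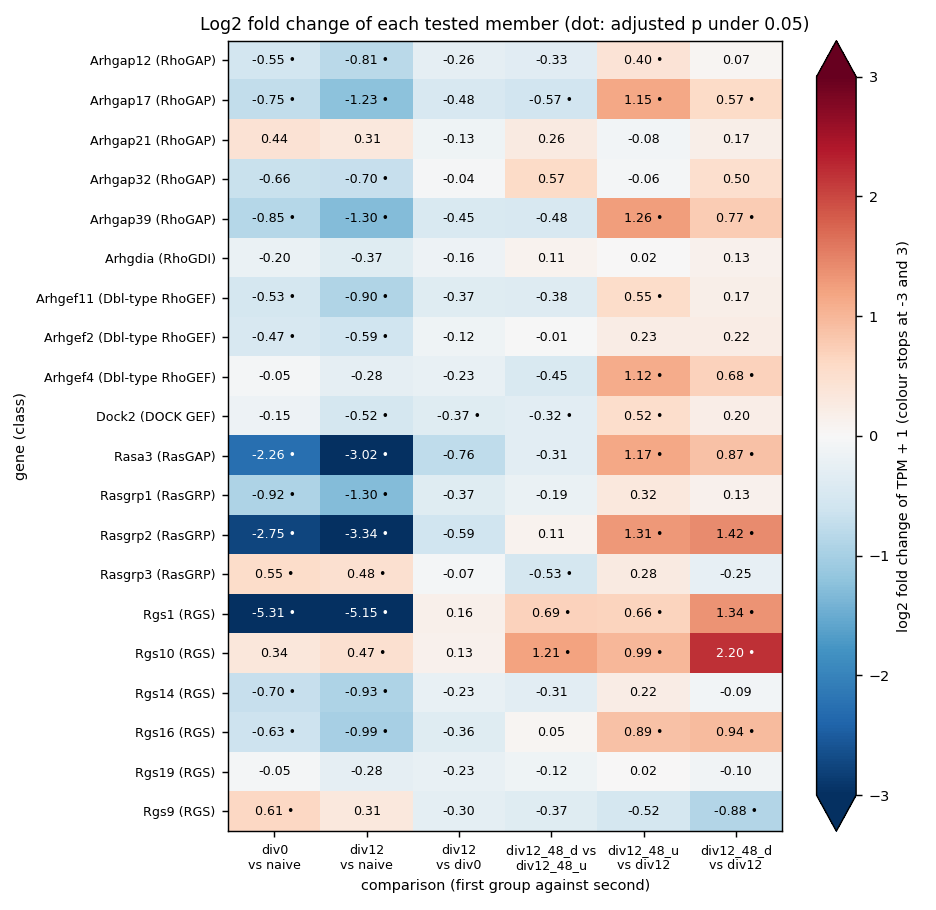
Log2 fold change of TPM + 1 for tested genes (rows, with class; 20 of 21 are drawn) in 6 comparisons (columns), where a dot marks an adjusted p under 0.05 from limma. The columns against naive are mostly blue, 11 and 13 falls, and the column of div12_48_u against div12 holds 11 rises and 0 falls.

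RGS genes showed the largest changes in both directions. Rgs1 encodes a regulator that dampens chemokine receptor signalling in B cells, and the gene lies on chromosome 1 from 144244669 to 144249104. Its level was 196 and 218 TPM in the naive libraries, 4.01 and 4.45 in div0, 4.13 and 5.66 in div12, 7.46 and 9.03 in div12_48_u, and 16.0 and 11.9 in div12_48_d. The naive libraries stood far above all others, and the libraries of both Phase II groups were above those of div12. The naive mean was 48.9 times that of div0 (log2 change -5.31 ± 0.19, adjusted p = 2.39e-06 by limma) and 42.3 times that of div12 (-5.15 ± 0.19, adjusted p = 1.32e-06).

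From div12 the gene rose to both Phase II states, by 0.66 ± 0.19 in div12_48_u and by 1.34 ± 0.19 in div12_48_d, which left it at 13.97 ± 2.93 TPM against 206.9 ± 15.1 in naive cells. The rise to div12_48_u was lost in 6 of 21 alternatives. It was lost with median-ratio scaling (adjusted p = 0.102 by limma), quantile normalization (0.138), no filter (0.0502) and the compared groups alone (0.0703). It was also lost when div12 replicate 1 (log2 change 0.47) or div12_48_u replicate 2 (0.53) was left out. Immediate early genes, which respond within minutes to stimulation or handling, also had their highest sum in naive cells. Their summed level over 14 genes was 12090 and 8352 TPM in naive cells, 1712 and 1262 in div0, 717 and 857 in div12, 3481 and 3320 in div12_48_u, and 1779 and 2302 in div12_48_d. All 14 fell in div12 against naive cells. Egr1 and Egr2 had higher means in div12_48_u (578 and 113 TPM) than in naive cells (296 and 88.5 TPM). The libraries of Egr2 overlapped. Between the Phase II groups the order of the sum was opposite to that of Rgs1. The part of these genes' state, or of the other cell types in the naive libraries, in the Rgs1 difference was not tested.

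Rgs10, which acts on alpha subunits of the Gi family, went the other way. The gene (chromosome 7, 128373621 to 128419506) was at 63.3 and 79.5 TPM in naive cells, 93.6 and 86.9 in div0, 86.0 and 113 in div12, 186 and 210 in div12_48_u, and 408 and 511 in div12_48_d. No library of a Phase II group overlapped with any of Phase I, and the libraries of the Phase II groups did not overlap with each other. The rise from div12 was 2.20 ± 0.17 in div12_48_d (4.61-fold between means, adjusted p = 4.46e-04 by limma) and 0.99 ± 0.17 in div12_48_u (1.98-fold, adjusted p = 0.00251). These calls held under every alternative run. Against naive cells it rose by 0.47 ± 0.17 in div12 (adjusted p = 0.0371), a call lost in 9 of 20 alternatives, among them without naive replicate 1 (0.205), div12 replicate 2 (0.240), either div0 library (0.0545 and 0.0543) or either div12_48_u library (0.0507 for each). In div0 it was called higher only with median-ratio scaling (0.57) or quantile normalization (0.56).

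The summed level of 12 myeloid markers was higher in div12_48_d as well. It was 746 and 885 TPM, against 481 and 473 in div12_48_u and 498 and 541 in div12. Mpeg1 gave most of it, with 515 and 581 TPM in div12_48_d, 305 and 303 in div12_48_u and 402 and 435 in div12. The median log2 change of the 12 markers in div12_48_d was 0.10 against div12_48_u and -0.02 against div12. Of 12 listed markers 1 rose in div12_48_d against div12 (Adgre1, from 29.3 and 43.5 to 139 and 204 TPM) and 1 against div12_48_u (C1qb, from 0.222 and 0 to 2.54 and 2.40 TPM). C1qa and Cd14 were listed at 0 in both div12_48_d libraries and Csf1r was at 0.0347 and 0.0786 TPM. The part of myeloid markers in the Rgs10 values was not tested.

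In div12_48_d Rgs10 had the largest share of the RGS sum. It made up 8.42% and 8.01% of the summed TPM of the 7 RGS genes in the naive libraries, 15.7% and 15.2% in div0, 16.4% and 21.9% in div12, 28.4% and 33.0% in div12_48_u, and 51.2% and 55.1% in div12_48_d. Rgs19 had the largest share in every other group, with 39.9% and 45.9% in naive cells, 60.6% and 61.4% in div0, 61.3% and 55.2% in div12, 49.7% and 45.7% in div12_48_u, and then 34.5% and 31.3% in div12_48_d. Rgs1 went from 26.1% and 21.9% in naive cells to between 0.672% and 2.01% in the other 8 libraries. The summed level of these 7 genes was 751 and 993 TPM in naive cells and 797 and 928 in div12_48_d. These groups thus overlapped in this sum while differing in its makeup. RGS genes that are not listed are no part of it.

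**Figure D2:**
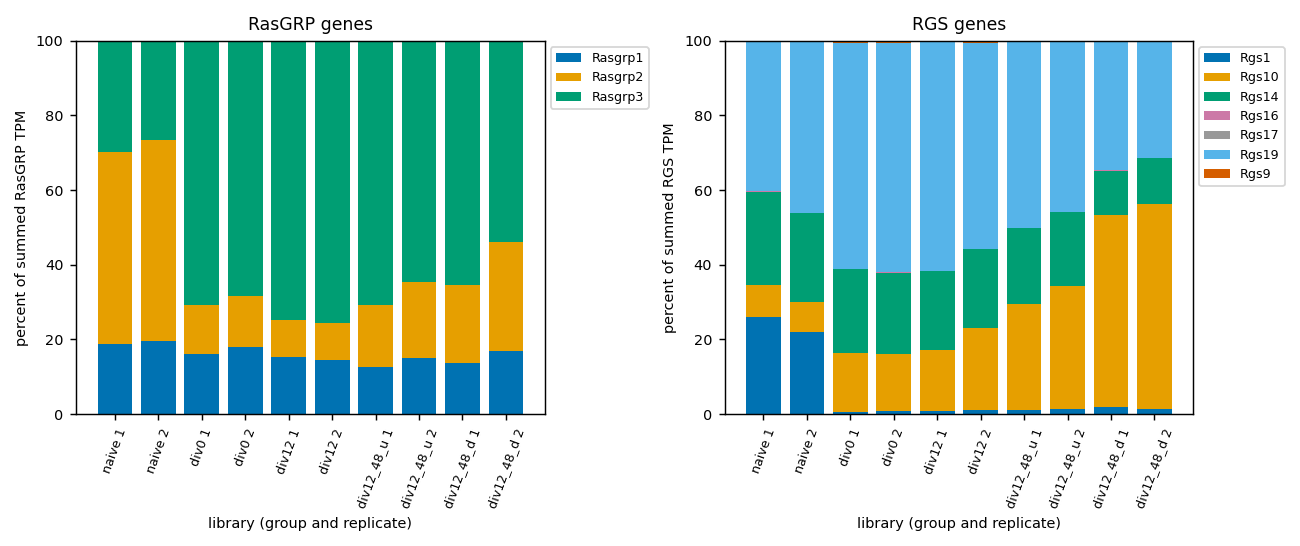
Share of each gene in the summed TPM of the listed RasGRP genes (left) and of the listed RGS genes (right), in percent, 1 bar per library. Rasgrp2 fills 51.3% and 54.0% of the RasGRP sum in naive cells and 9.80% and 9.94% in div12, and Rgs10 fills 51.2% and 55.1% of the RGS sum in div12_48_d.

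The remaining RGS genes changed less on the log2 scale of TPM + 1. Rgs14, which combines an RGS domain with Ras-binding domains, was at 188 and 237 TPM in naive cells, 134 and 126 in div0, 110 and 110 in div12, 132 and 125 in div12_48_u, and 95.1 and 112 in div12_48_d. It fell by 0.70 ± 0.12 in div0 and by 0.93 ± 0.12 in div12 against naive cells, and it was called in no comparison between the activated groups. In div12_48_d against div12_48_u (-0.31) it was called lower without naive replicate 1 (adjusted p = 0.0400) or 2 (0.0403) or both (0.0405). Rgs19, an RGS protein first found as a partner of Gi subunits, was at 275 to 456 TPM over all libraries, and it was called in no comparison. Its naive libraries differed from each other (300.0 and 456 TPM), and without naive replicate 1 it fell in div0 (-0.35, adjusted p = 0.0274) and div12 (-0.59, adjusted p = 0.00265).

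Both other tested RGS genes were near the filter, with maxima of 1.57 TPM for Rgs16, a GAP for Gi and Gq subunits, and 3.56 TPM for Rgs9, known from photoreceptors and striatum. Rgs16 was at 1.57 and 1.25 TPM in naive cells, 0.515 and 0.589 in div0, 0.152 and 0.268 in div12, 1.13 and 1.36 in div12_48_u, and 1.43 and 1.22 in div12_48_d. It fell by 0.63 ± 0.18 in div0 and 0.99 ± 0.18 in div12 against naive cells. From div12 it rose by 0.89 ± 0.18 in div12_48_u and 0.94 ± 0.18 in div12_48_d. Between means these rises were 5.93-fold and 6.31-fold, and the fall in div12 was 6.7-fold, all at levels no higher than 1.57 TPM. With quantile normalization its falls were not called (adjusted p = 0.995 in div0 and 0.165 in div12). The div0 call was also lost without div0 replicate 1 (0.0891) or 2 (0.0679), and that for div12_48_d without either library of div12 (0.0595 and 0.0504) or of div12_48_d (0.0548 and 0.0565). Rgs9 was at 2.20 and 1.51 TPM in naive cells, 3.56 and 3.10 in div0, 2.49 and 2.54 in div12, 1.91 and 1.08 in div12_48_u, and 1.03 and 0.796 in div12_48_d. It rose in div0 against naive cells by 0.61 ± 0.22 (adjusted p = 0.0425 by limma) and fell in div12_48_d against div12 by 0.88 ± 0.22 (adjusted p = 0.0301). The rise was lost in 10 of 19 alternatives, among them without naive replicate 2 (0.137), either div0 library (0.179 and 0.102), either div12 library (0.0634 and 0.0637) or either div12_48_d library (0.0586 and 0.0583). The fall was lost in 7 of 20, among them without either library of div0 (0.0570 and 0.0569), div12 (0.0985 and 0.133) or div12_48_d (0.0706 and 0.185).

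**Figure D3:**
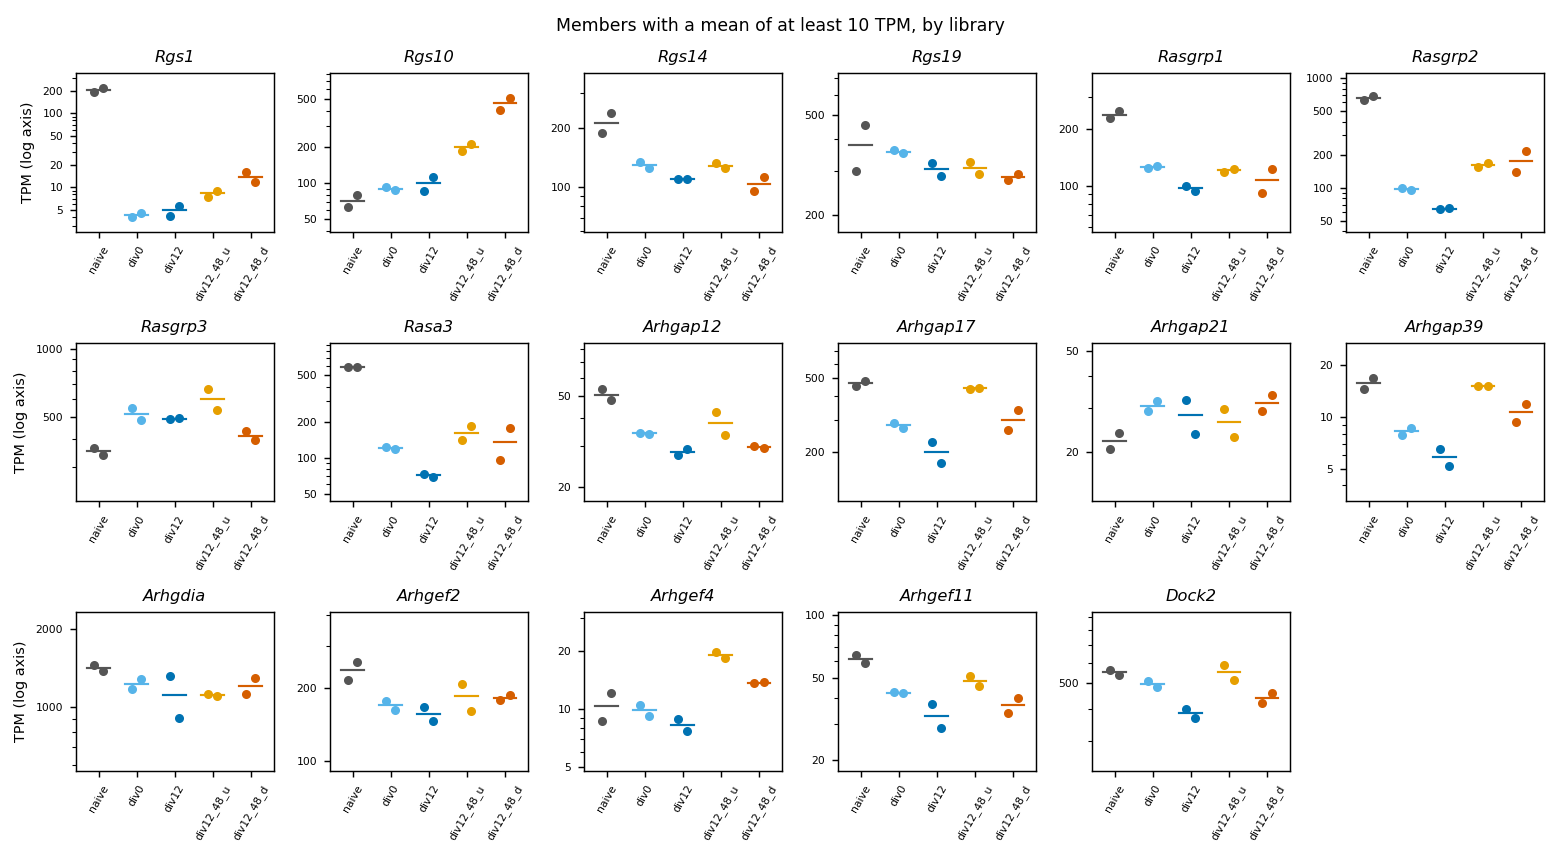
TPM of the 17 members with a mean of at least 10 TPM, on log axes that differ between panels, with 1 point per library and a line at the mean of each group. Rgs1 drops from 196 and 218 TPM in naive cells to under 20 in all other libraries, while Rgs10 climbs to 408 and 511 TPM in div12_48_d.

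Among the regulators of Ras and Rap, RasGRP genes encode exchange factors that respond to diacylglycerol, and some also to calcium. Rasgrp2 (chromosome 19, 6398957 to 6415216), a calcium-responsive exchange factor for Rap1 needed for integrin activation in platelets, was at 627 and 691 TPM in naive cells, 98.8 and 95.7 in div0, 63.8 and 64.9 in div12, 153 and 169 in div12_48_u, and 139 and 215 in div12_48_d. The naive libraries were above all others and div12 below all others. Its fall was 2.75 ± 0.17 on the log2 scale in div0 (adjusted p = 1.91e-05 by limma) and 3.34 ± 0.17 in div12 (adjusted p = 4.11e-06). From div12 it rose by 1.31 ± 0.17 in div12_48_u and 1.42 ± 0.17 in div12_48_d, and these 4 calls held under every alternative run. The summed level of 3 platelet markers was 54.4 and 60.8 TPM in naive cells and 18.1 to 49.5 elsewhere. Itgb3 gave most of it, at 41.0 and 46.2 TPM in naive cells and 48.0 and 44.4 in div0. Pf4 was at 7.70 and 7.43 TPM in naive cells and under 1 TPM in every other library. Itga2b was at 5.73 and 7.2 TPM in naive cells and 1.15 and 1.16 in div0. The part of platelet RNA in the Rasgrp2 values was not tested.

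Rasa3, a GAP for Ras and Rap1 that opposes Rasgrp2 in platelets, followed a similar course. The gene (chromosome 8, 13567218 to 13677587) was at 584 and 586 TPM in naive cells, 123 and 119 in div0, 73.4 and 68.95 in div12, 141 and 186 in div12_48_u, and 96.3 and 177 in div12_48_d. It fell by 2.26 ± 0.25 in div0 (4.83-fold between means, adjusted p = 1.98e-04 by limma) and by 3.02 ± 0.25 in div12 (8.22-fold, adjusted p = 2.31e-05). It rose from div12 by 1.17 ± 0.25 in div12_48_u (adjusted p = 0.00616) and by 0.87 ± 0.25 in div12_48_d (adjusted p = 0.0466). The last call was lost in 17 of 21 alternatives, among them leaving out div12_48_d replicate 2 (adjusted p = 0.200), div12 replicate 1 (0.117) or div12 replicate 2 (0.187), and any library of naive, div0 or div12_48_u (0.0590 to 0.0803). The other 3 Rasa3 calls held under every alternative run.

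Rasgrp1, the exchange factor that couples antigen receptors to Ras in T cells and is also made by B cells, was at 230 and 249.8 TPM in naive cells, 124 and 128 in div0, 99.9 and 94.4 in div12, 119 and 123 in div12_48_u, and 91.0 and 123 in div12_48_d. It fell by 0.92 ± 0.13 in div0 and by 1.30 ± 0.13 in div12, and the activated groups lay within 91.0 to 128 TPM. T cell markers summed to at most 57.8 TPM in any library, and their part in the Rasgrp1 values was not tested.

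Rasgrp3, an exchange factor for Ras and Rap that acts downstream of the B cell antigen receptor, rose where the other RasGRP genes fell. The gene (chromosome 17, 75435870 to 75529054) was at 365 and 339 TPM in naive cells, 546 and 486 in div0, 487 and 494 in div12, 663 and 534 in div12_48_u, and 432 and 395 in div12_48_d. All 8 activated libraries were above both naive libraries. It rose by 0.55 ± 0.11 in div0 (adjusted p = 0.00427 by limma) and 0.48 ± 0.11 in div12 (adjusted p = 0.00562). Its share of the RasGRP sum went from 29.9% and 26.5% in naive cells to 74.8% and 75.6% in div12, while the sum itself went from 1223 and 1281 TPM to 651 and 653. In Phase II its share was 70.9% and 64.6% in div12_48_u and 65.2% and 53.8% in div12_48_d.

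Rasgrp3 is listed with 3 transcripts, and those differed in their course. NM_001166493, which the GENCODE M21 annotation starts just after the upstream window printed above (position 75435926), was at 19.4 and 18.0 TPM in naive cells, 56.2 and 55.4 in div0, 40.7 and 72.5 in div12, 125 and 97.2 in div12_48_u, and 50.9 and 35.9 in div12_48_d. NM_207246, started within the downstream window (position 75465486), was at 124 and 107 TPM in naive cells, 195 and 188 in div0, 182 and 167 in div12, 244 and 206 in div12_48_u, and 178 and 140 in div12_48_d. The most abundant one, NM_001360103, was at 222 and 214 TPM in naive cells and 203 to 295 in all others, and with it alone the rise of Rasgrp3 was not called (adjusted p = 0.105 in div0 and 0.139 in div12). NM_001166493 made up 5.30% of the gene in both naive libraries and 18.8% and 18.2% in div12_48_u. Such shares are estimates that rest on the few bases by which transcripts differ, from 50 bp single-end reads, and they were not tested.

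**Figure D4:**
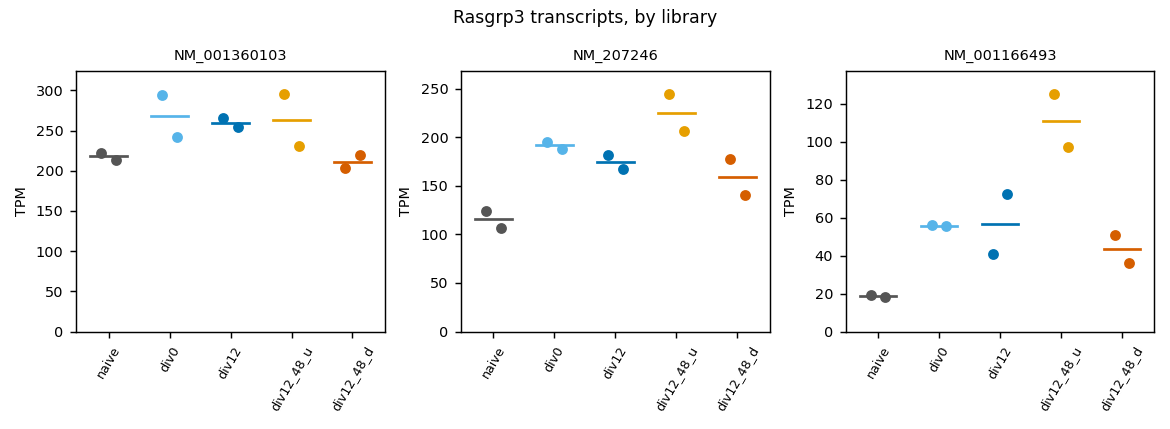
TPM of the 3 listed Rasgrp3 transcripts by library, with linear axes from 0 and a line at the mean of each group. NM_001166493 lies at 19.4 and 18.0 TPM in naive cells and at 125 and 97.2 in div12_48_u.

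Among RhoGAP genes, Arhgap12, Arhgap17 and Arhgap39 fell in both Phase I groups and rose from div12 to div12_48_u. The summed level over 6 genes was 542 and 575.5 TPM in naive cells, 360 and 344 in div0, 295 and 233 in div12, 527 and 518 in div12_48_u, and 332 and 413 in div12_48_d. Of 5 tested genes 3 fell in div0 (39.6% of all genes fell), 4 fell in div12 (47.5% of all genes), and 3 rose from div12 to div12_48_u (27.7% of all genes). Arhgap17 (chromosome 7, 123279149 to 123369948), a GAP for Cdc42 and Rac that also binds membranes, gave most of the sum. It was at 453 and 485 TPM in naive cells, 289 and 269 in div0, 228 and 175 in div12, 439 and 446 in div12_48_u, and 263 and 337 in div12_48_d.

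Arhgap17 fell by 0.75 ± 0.15 in div0 and by 1.23 ± 0.15 in div12 against naive cells and rose from div12 by 1.15 ± 0.15 in div12_48_u (adjusted p = 7.11e-04 by limma). The mean was 442.5 ± 4.93 TPM in div12_48_u and 468.8 ± 23.0 TPM in naive cells, a pair that was not tested. Its rise from div12 to div12_48_d was 0.57 ± 0.15 (adjusted p = 0.0326), a call lost in 11 of 21 alternatives, including without div12 replicate 2 (0.174), div12_48_d replicate 2 (0.222) or either library of div0 (0.0584 and 0.0582) or div12_48_u (0.0565 and 0.0563), and with a replicate block (0.0501). Exons of Arhgap17 overlap with exons of Lcmt1 on the opposite strand, and whether reads were assigned by strand is not stated.

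Arhgap39, a RhoGAP known from neurons, was at 14.6 and 16.9 TPM in naive cells, 7.88 and 8.67 in div0, 6.48 and 5.18 in div12, 15.2 and 15.3 in div12_48_u, and 9.37 and 11.99 in div12_48_d. It fell by 0.85 ± 0.17 in div0 and 1.30 ± 0.17 in div12 and rose from div12 by 1.26 ± 0.17 in div12_48_u. The rise of 0.77 ± 0.17 in div12_48_d was lost in 5 of 21 alternatives. It was lost with quantile normalization (adjusted p = 0.0535 by limma), the most abundant transcript (0.111) and the compared groups alone (0.0851). It was also lost when div12 replicate 2 (log2 change 0.63) or div12_48_d replicate 2 (0.61) was left out. Arhgap12, a GAP for Rac, fell by 0.55 ± 0.13 in div0 (lost with median-ratio scaling, adjusted p = 0.0563) and by 0.81 ± 0.13 in div12, with levels between 27.6 and 53.3 TPM over all libraries. Its rise of 0.40 ± 0.13 in div12_48_u was lost in 10 of 21 alternatives (adjusted p up to 0.370), among them the omission of any single library of div0, div12 or div12_48_d, and of div12_48_u replicate 1 (0.207).

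Arhgap21, which acts on Cdc42 at the Golgi, was the RhoGAP without a called fall among the abundant ones. It was at 20.5 and 23.9 TPM in naive cells and 23.0 to 33.8 in the others, and it rose against naive cells in div0 and div12 only with median-ratio scaling (0.66 and 0.63) or quantile normalization (0.73 and 0.72), and in div0 with its most abundant transcript (0.67). Arhgap32 was at 0.748 and 1.70 TPM in naive cells and 0.196 to 1.04 elsewhere, and its fall of 0.70 ± 0.25 in div12 was lost in 9 of 18 alternatives. With quantile normalization the change was -0.04 (adjusted p = 0.882), with a pseudocount of 5 it was -0.22 (0.0544), and with median-ratio scaling -0.57 (0.0603). The call was also lost without naive replicate 2 (adjusted p = 0.107), either div0 library (0.0533 and 0.0535) or either div12 library (0.0516 and 0.175).

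Arhgdia, the single RhoGDI listed, was called in no comparison. Its level was 1447 and 1382 TPM in naive cells, 1178 and 1279 in div0, 1319 and 912 in div12, 1124 and 1105 in div12_48_u, and 1122 and 1289 in div12_48_d. Without div12 replicate 1 it fell in div12 against naive cells (-0.63, adjusted p = 0.00211). At each of the 5 groups' means it was the most abundant of the 25 genes.

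Among Dbl-type RhoGEFs, Arhgef2 encodes a microtubule-bound activator of RhoA, Arhgef11 a RhoA activator that G protein alpha subunits stimulate, and Arhgef4 an activator of Rac and Cdc42. Arhgef2 was at 217 and 258 TPM in naive cells, 178 and 162 in div0, 167 and 146 in div12, 209 and 161 in div12_48_u, and 179 and 187 in div12_48_d. It fell by 0.47 ± 0.14 in div0 and 0.59 ± 0.14 in div12. The div0 call was lost in 6 of 20 alternatives, and the div12 call with median-ratio scaling (adjusted p = 0.0577 by limma). The div0 call was lost with median-ratio scaling (0.0830), quantile normalization (0.0882) and the most abundant transcript (0.053). It was also lost without naive replicate 2 (log2 change -0.35) or div0 replicate 1 (-0.54) or 2 (-0.41).

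Arhgef11 was at 64.6 and 58.9 TPM in naive cells, 42.7 and 42.0 in div0, 37.2 and 28.5 in div12, 50.7 and 45.4 in div12_48_u, and 33.6 and 40.1 in div12_48_d. It fell by 0.53 ± 0.15 in div0 and 0.90 ± 0.15 in div12 and rose from div12 by 0.55 ± 0.15 in div12_48_u. The div0 fall was lost in 6 of 20 alternatives and the rise in 6 of 21. Both were lost with median-ratio scaling (adjusted p = 0.0722 and 0.0543 by limma) and quantile normalization (0.0605 and 0.0792). The same held with the most abundant transcript (0.0972 and 0.052). The rise was lost with the compared groups alone (0.0727) and without div12 replicate 2 (log2 change 0.36) or div12_48_u replicate 1 (0.47). The fall was also lost without naive replicate 1 (-0.47) or div0 replicate 1 (-0.54) or 2 (-0.52).

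Arhgef4 differed from the other RhoGEFs in that its highest level was in Phase II cells without further division. It was at 8.67 and 12.1 TPM in naive cells, 10.5 and 9.28 in div0, 8.87 and 7.69 in div12, 19.97 and 18.4 in div12_48_u, and 13.7 and 13.9 in div12_48_d. It rose from div12 by 1.12 ± 0.17 in div12_48_u (adjusted p = 0.00158 by limma), a call that held under every alternative run. The rise of 0.68 ± 0.17 in div12_48_d was lost in 10 of 21 alternatives, including the omission of either div0 (adjusted p = 0.0614 and 0.0611), either div12 (0.0681 and 0.168) or either div12_48_d library (0.102 and 0.171). Exons of Arhgef4 and Arhgef11 overlap with exons of genes on the opposite strand (Fam168b and Lrrc71), and those of Arhgef2, Dock2, Rasgrp2 and Rgs16 with noncoding transcripts on the opposite strand.

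Dock2, the Rac exchange factor of leukocytes that lymphocytes need for migration, was the abundant DOCK gene (chromosome 11, 34226815 to 34783905). It was at 564 and 537 TPM in naive cells, 511 and 483 in div0, 398 and 369.8 in div12, 586 and 517 in div12_48_u, and 422 and 459.7 in div12_48_d. The libraries of div12 and div12_48_d lay below all others. It fell by 0.52 ± 0.09 in div12 against naive cells (lost with median-ratio scaling, adjusted p = 0.0676) and rose from div12 by 0.52 ± 0.09 in div12_48_u, which held in all alternatives run.

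The study also compared, within each phase, cells that divided in it with cells that did not, here called divided and undivided. In Phase I 1 of 21 members differed (0 higher and 1 lower, 4.76%, where 8.76% of all genes were called, 3.68% higher and 5.08% lower), and in Phase II 5 did (2 higher and 3 lower, 23.8% where 25.6% of all genes were called, 12.2% higher and 13.4% lower). These shares are near or below the background. With quantile normalization 1 was higher and 5 lower in Phase II, and with median-ratio scaling 2 and 2. The Phase II count of 5 became 8 without either naive library, 3 without either div0 library, and 1 without div12_48_u replicate 1 or div12_48_d replicate 1. Without either div12_48_d library 3 members were called in Phase I, Rasa3 (-0.76), Rasgrp1 (-0.37) and Rasgrp2 (-0.59), all lower in div12 than in div0. In the same contrasts 2 and 15 of 15 mitosis genes were higher in divided cells, their summed level being 1790 and 2338 TPM in div0, 3357 and 2702 in div12, 1007 and 726.5 in div12_48_u, and 2218 and 2010 in div12_48_d.

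Among these, Dock2 fell in divided cells in each phase, with a change of -0.37 ± 0.09 in Phase I (adjusted p = 0.0416 by limma) and -0.32 ± 0.09 in Phase II (adjusted p = 0.0310), with no overlap of libraries in either. The Phase I call was lost in 13 of 21 alternatives (adjusted p up to 0.273), among them the omission of any library of div0, div12 or div12_48_d or of div12_48_u replicate 2, and a replicate block (0.0531). The Phase II call was lost in 7 of 21 alternatives. It was lost with median-ratio scaling (adjusted p = 0.0519 by limma), no trend (0.0636) and the compared groups alone (0.0863). It was also lost without either div0 library (log2 change -0.32 for each), div12_48_u replicate 1 (-0.23) or div12_48_d replicate 1 (-0.26). Arhgap17 was lower in divided Phase II cells by 0.57 ± 0.15 (adjusted p = 0.0239 by limma). This call was lost in 4 of 21 alternatives. It was lost with the compared groups alone (0.0627) and without div12_48_u replicate 1 (log2 change -0.58) or 2 (-0.56) or div12_48_d replicate 1 (-0.39). Rasgrp3 was lower in divided Phase II cells by 0.53 ± 0.11 (adjusted p = 0.0125), a call lost with the most abundant transcript (-0.30, 0.147), with the compared groups alone (0.0666), and without div12_48_u replicate 1 (0.0701) or div12_48_d replicate 1 (0.0509) or 2 (0.0631).

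Rgs10 was higher in divided Phase II cells by 1.21 ± 0.17 (2.32-fold between means, adjusted p = 0.00275 by limma), a call that held under every alternative run (adjusted p up to 0.0282). Rgs1 was higher by 0.69 ± 0.19 (adjusted p = 0.0326), lost in 8 of 21 alternatives, including without div12_48_d replicate 1 (0.219), div12_48_u replicate 1 (0.164) or 2 (0.0613), or either div0 library (0.0571 and 0.0572). In Phase I the same contrast was 0.13 ± 0.17 for Rgs10 and 0.16 ± 0.19 for Rgs1, with libraries of div0 and div12 overlapping for both genes.

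Whether the division contrast differed between the phases was tested directly. By limma 0 of 21 members and 0.0% of all genes passed at an adjusted p under 0.05, while 3 members and 438 of all genes (9.89%) had an unadjusted p under 0.05. These members were Rgs10 (difference 1.08 ± 0.24, adjusted p = 0.149), Rasgrp2 (0.69 ± 0.25, adjusted p = 0.359) and Rasgrp3 (-0.45 ± 0.16, adjusted p = 0.359).

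**Figure D5:**
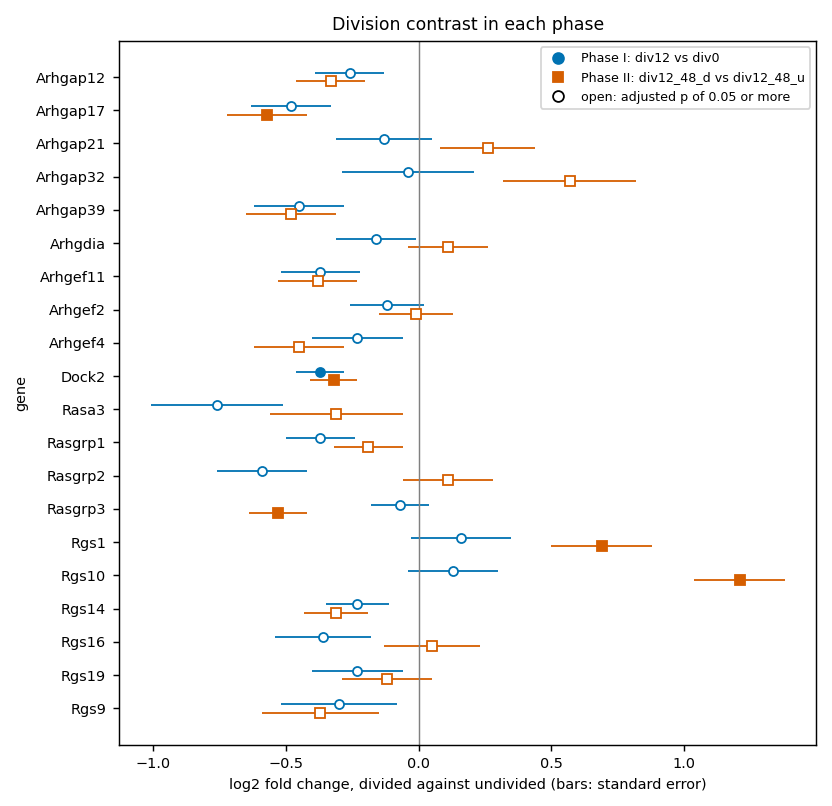
Log2 fold change of divided against undivided cells for 20 of the 21 tested genes, with its standard error, in Phase I (circles) and Phase II (squares), filled where the adjusted p was under 0.05. Rgs10 lies at 0.13 in Phase I and 1.21 in Phase II, and Dock2 is filled in both at -0.37 and -0.32.

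The switches that these regulators act on were compared next, from 28 small GTPases looked for (the RhoA, Rac, Ras and Rap types), of which 14 were tested. In div0 against naive cells 1 rose and 7 fell, where 15.4% and 39.6% of all genes did. In div12_48_u against div12 1 rose and 4 fell, where 27.7% and 13.6% of all genes did. Rac2, the Rac of blood cells and a target of Dock2, rose by 0.86 ± 0.08 in div0 from 1270 ± 105 to 2290 ± 49.2 TPM. Rap1b, a target of Rasgrp2 and Rasa3, fell by 1.35 ± 0.21 from 1080 ± 426 to 407 ± 15.9 TPM, with wide spread between the naive libraries. Rhob, a relative of RhoA whose transcript turns over rapidly, fell by 4.06 ± 0.39, from 538 and 190 to 19.5 and 17.0 TPM.

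Of 57 other GEFs and GAPs looked for, 23 were listed and 19 tested. In div0 against naive cells 1 rose and 9 fell (15.4% and 39.6% of all genes), and in div12 1 rose and 13 fell (19.4% and 47.5% of all genes). From div12 to div12_48_u 12 rose and 2 fell, where 27.7% and 13.6% of all genes did. The riser in div0 was Ect2, a RhoA activator of cytokinesis (1.91 ± 0.20), and Rapgef4, a cAMP-responsive Rap activator, fell most there (-2.14 ± 0.26). Vav3, a Rac and RhoA activator of antigen receptor signalling, rose from div12 by 1.02 ± 0.13 in div12_48_u.

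Among effectors of RhoA, Rac and Cdc42 and actin regulators, 23 of 38 were listed and 22 tested. In div0 3 rose and 12 fell (15.4% and 39.6% of all genes), the risers being Cit (2.44 ± 0.28), Anln (2.36 ± 0.19) and Diaph3 (2.31 ± 0.21), genes known from cytokinesis. The same 3 genes fell from div12 to div12_48_u (-1.31 ± 0.28, -1.65 ± 0.19 and -1.31 ± 0.21), where 10 of the list rose and 6 fell (27.7% and 13.6% of all genes).

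The partners of the RGS proteins are the G protein subunits and their receptors. Of 30 subunit and cofactor genes 21 were listed and 18 tested, and in div0 2 rose and 6 fell, where 15.4% and 39.6% of all genes did. Gnai2, the main Gi alpha subunit by level, was at 1290 ± 122 TPM in naive cells and 1180 ± 18.7 in div0 (-0.12 ± 0.10, adjusted p = 0.338), and Gna13, which restrains migration of B cells, fell by 1.16 ± 0.17. Of 24 listed migration receptors (28 looked for) 1 rose and 16 fell in div0 (15.4% and 39.6% of all genes), with a median of -1.30 against -0.24 over all genes. Cxcr4 fell by 5.02 ± 0.17 and S1pr1 by 3.91 ± 0.29, while Ccr6 rose by 1.19 ± 0.16. From div12 to div12_48_u 6 receptors rose and 1 fell, a share of rises near the 27.7% of all genes, with S1pr1 by 3.50 ± 0.29 and Cxcr4 by 1.43 ± 0.17 among the rises.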

How the data were processed

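RNA of 10 libraries in 5 groups was analysed. The deposited values are TPM by RefSeq transcript, and each library sums to 1000000 TPM over 13128 transcripts. Per the submitters' processing notes the build was mm10 and the tools included HISAT2, Salmon, featureCounts, HTSeq and DESeq2; which tool made the TPM, and with which version or strand setting, is not given in the sources used here. TPM keeps no counts, so depth is unknown and no count model was fitted. After 63 transcripts without a symbol were dropped, TPM were summed by symbol (58 transcripts for the 25 members, of which 16 have several). Limma 3.58.1 (R 4.3.3) was fitted to log2(TPM + 1) over all libraries, with group as the only term, an intensity trend in eBayes and 5 residual degrees of freedom, and two-sided p were Benjamini-Hochberg adjusted over 4427 genes. The fit was tested on simulated data for div0 against naive cells only. The simulation gave all groups the same spread, so it does not cover the wider spread of the naive libraries. Named genes are the 2 most abundant of each class, the called ones with the largest rise and fall per class and comparison (at least 10 TPM, no overlap between libraries), and a list of known B cell regulators; the remaining members are given too, except 1 that passed the filter and is not reported here, and examples from the gene lists were picked with their values in view. The members, lists and rule were chosen with earlier results of these data known. Alternatives were pseudocounts of 0.1 and 5, no filter or one at 5 TPM, median-ratio and quantile scaling, the compared groups alone, no naive group, a replicate block, no trend, the most abundant transcript, and leaving out each library, whose lone partner was then assumed to vary like the other groups. Locations are from RefSeq GRCm38.p6, the build that mm10 names, and overlaps with other genes and transcript starts from GENCODE M21.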

Additional observations from a re-analysis of the deposited data

How the results depend on the processing

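Of 54 calls of single members over 7 comparisons, 28 held under every alternative run, 26 were lost under at least 1, and 0 changed sign. The number of members called moved by over 1.5 times in 3 comparisons. For div12 against div0 (1 called) it was 0 with no filter, median-ratio scaling, a replicate block, no trend or the most abundant transcript and 2 with the compared groups alone, and 0 to 3 when a library was left out. For div12_48_d against div12_48_u (5 called) it was 8 without the naive group and 1 with the compared groups alone, and 1 to 8 when a library was left out. For div12_48_d against div12 (9 called) it was 5 with the most abundant transcript or the compared groups alone, and 3 to 8 when a library was left out. The cause was not tested. The labels do not say whether libraries with equal replicate numbers share mice or cultures. The correlation over genes of replicate differences between groups ran from -0.238 (div0 and div12) to 0.199 (div12_48_u and div12_48_d). Such a correlation cannot decide whether samples were paired. The replicate block moved the count of all called genes in div12 against div0 from 388 to 247. With 2 libraries a group and unknown depth, small differences of genes near 1 TPM could not be resolved.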
